A study of Mus musculus with 15 samples.

Results

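The Id and E proteins were followed as 6 genes, Id1, Id2, Id3, Tcf3, Tcf4 and Tcf12, out of 19938 genes measured on arrays of mouse dendritic cell (DC) progenitors. The genes were listed by symbol, and each was read by 1 probe set annotated to that symbol alone. Cells were sorted from bone marrow at 2 stages. The earlier cells were common dendritic cell progenitors (CDPs), from which plasmacytoid and classical DCs both derive, and the later cells were Zbtb46-GFP+ with intermediate c-Kit, where the GFP reports Zbtb46, a factor of the classical DC lineage. All cells carried the Zbtb46-GFP reporter. Chimeric mice were the source of the wild-type (WT) and Id2 knockout (KO) cells, whereas the Batf3 KO cells were taken from reporter mice, which the labels do not call chimeric. Host type and Batf3 genotype therefore cannot be told apart. The labels give no age, do not say which cells of a chimera were of host origin and do not say whether replicates came from separate animals, so p-values measure only the spread between these samples.

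E proteins are basic helix-loop-helix (bHLH) transcription factors that bind E-box DNA as dimers. Tcf3 (E2A), Tcf4 (E2-2) and Tcf12 (HEB) are the mammalian members. Id proteins keep the helix-loop-helix but lack the basic region, so they pair with E proteins and hold them off DNA. In DCs, Tcf4 is known as a central factor of plasmacytoid DCs and Id2 as a factor of classical DCs, above all the cDC1 branch. The deposited values bear on this pairing at the level of RNA only.

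Promoter sequences are shown for Id2 and Tcf12, which both differed between Id2 KO and WT Zbtb46-GFP+ cells, and for Id3, a second Id gene, for which no such difference passed. Each runs from 250 bases before to 50 bases after a RefSeq start (build GRCm38.p6) on the gene's strand, and capitals mark the E-box CANNTG, which reads the same on both strands. Tcf12 has 3 listed starts, and the most upstream is shown. The windows are chr12:25096043-25096342 on the minus strand for Id2, chr9:72111770-72112069 on the minus strand for Tcf12 and chr4:136143572-136143871 on the plus strand for Id3.
Id2: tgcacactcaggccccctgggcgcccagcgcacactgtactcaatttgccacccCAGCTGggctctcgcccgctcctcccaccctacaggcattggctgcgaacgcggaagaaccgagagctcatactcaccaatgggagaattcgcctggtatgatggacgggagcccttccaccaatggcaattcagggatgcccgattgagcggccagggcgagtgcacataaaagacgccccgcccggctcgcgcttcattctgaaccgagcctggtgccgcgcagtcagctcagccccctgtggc
Tcf12: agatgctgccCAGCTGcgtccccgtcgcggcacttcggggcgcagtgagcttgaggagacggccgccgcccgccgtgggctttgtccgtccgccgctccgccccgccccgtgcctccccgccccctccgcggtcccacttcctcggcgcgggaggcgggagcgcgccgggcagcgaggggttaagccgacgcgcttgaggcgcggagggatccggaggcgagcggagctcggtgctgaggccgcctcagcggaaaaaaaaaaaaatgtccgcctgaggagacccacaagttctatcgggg
Id3: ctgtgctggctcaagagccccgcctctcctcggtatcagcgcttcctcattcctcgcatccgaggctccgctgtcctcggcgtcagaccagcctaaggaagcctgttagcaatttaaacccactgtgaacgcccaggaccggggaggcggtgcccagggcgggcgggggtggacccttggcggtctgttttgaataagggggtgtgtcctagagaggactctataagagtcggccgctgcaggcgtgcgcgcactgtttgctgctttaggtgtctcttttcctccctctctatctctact
The Id2 window held 1 E-box, CAGCTG, its first base at -196 from the start, and the Tcf12 window held 1, also CAGCTG, at -240. The Id3 window held 0. At the other Tcf12 starts, chr9:72111152-72111451 held CAAGTG and CACTTG and chr9:71896047-71896346 held CATGTG. Neither of those windows held a CAGCTG, so the Tcf12 match depends on the start shown. Of 32851 windows of this length, 72.31% held a CANNTG, which includes CAGCTG, and 16.3% held a CAGCTG. In the Tcf3 window, chr10:80433586-80433885, the single E-box was CACTTG at -54. These matches describe letters and not binding. Id1 is not shown.

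Of the 15 arrays, 12 were on one scale with 2 per group, and Zbtb46-GFP+ replicate 1 of each genotype was on another, with median signals of 23.8 to 24.1 against 100.8 to 112.1. Group means, standard deviations (SD) and tests therefore use the 12 arrays, and those 3 arrays are given apart. A fit of all 15 arrays with no term for the 3 kept 1 of the 13 calls on these genes, the mean step of Id2. All values are log2 signal, and levels of different probe sets are not compared. Batf3 was lower in Batf3 KO than in WT Zbtb46-GFP+ cells (log2 change -2.82; limma, adjusted p = 2.12e-05). Of 5 CDP markers, 1 was called higher and 2 lower in the WT step, so they do not all follow the sort. Csf1r and Cd34 were at 11.14 and 11.42 in WT CDPs and at 9.11 and 8.99 in WT Zbtb46-GFP+ cells. Kit went from 9.71 to 11.21, Flt3 from 11.35 to 11.45 and Il7r from 5.91 to 5.57. Zbtb46 rose by 1.08 (2.12-fold) across the WT step. In the knockouts the Zbtb46 step did not pass by limma, at 0.15 in Batf3 KO (adjusted p = 0.739) and 0.20 in Id2 KO (adjusted p = 0.656). On the 12 arrays Xist was at 11.93 to 12.42 in WT and at 5.06 to 5.71 in both knockouts, so a sex difference between the animals and the knockout cannot be told apart in comparisons with WT. On the 3 other arrays Xist was high in WT and Batf3 KO and low in Id2 KO. Between Id2 KO and Batf3 KO on the 12 arrays the Xist pattern was shared.

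Id2, the targeted inhibitor, was 18.3-fold higher in WT Zbtb46-GFP+ cells than in WT CDPs, and in Zbtb46-GFP+ cells it was 8.75-fold lower in Id2 KO than in WT. In WT CDPs Id2 was at 7.68 and 7.40, in Batf3 KO CDPs at 7.76 and 7.83, and in Id2 KO CDPs at 7.08 and 5.96. In Zbtb46-GFP+ cells it was at 11.999 and 11.47 in WT, at 11.14 and 11.56 in Batf3 KO, and at 8.39 and 8.82 in Id2 KO. The WT and Batf3 KO Zbtb46-GFP+ arrays overlapped with each other and lay above all others, and the Id2 KO Zbtb46-GFP+ arrays lay below them and above every CDP array. Whether the probes lie inside the deleted part of Id2 was not analysed here, so the remaining signal does not check how much transcript was left.

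From CDPs to Zbtb46-GFP+ cells, Id2 rose by 4.19 on the log2 scale (standard error, SE, 0.32; 95% interval 3.49 to 4.90; limma, adjusted p = 1.49e-05) in WT. This was rank 23 of 19938 genes counted from the largest rise. In Batf3 KO it rose by 3.56 (11.8-fold; interval 2.86 to 4.27; limma, adjusted p = 8.07e-05) and in Id2 KO by 2.09 (4.26-fold; interval 1.39 to 2.79; limma, adjusted p = 0.00259). Between Id2 KO and WT the steps differed by -2.10, which did not pass over all genes (interval -3.10 to -1.11; limma, adjusted p = 0.106).

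In Zbtb46-GFP+ cells Id2 KO differed from WT in Id2 by a log2 change of -3.13 (SE 0.32; interval -3.83 to -2.43; limma, adjusted p = 5.04e-04). Against Batf3 KO it was 6.72-fold lower (log2 change -2.75; limma, adjusted p = 0.00317), the lowest change of all 19938 genes. In CDPs the difference between Id2 KO and WT was -1.03 (interval -1.73 to -0.32) and did not pass (limma, adjusted p = 1.00), although the arrays of these groups did not overlap. The array with 5.96 was the lower of a pair with an SD of 0.79, the widest of any group for Id2. Each Id2 call on the 12 arrays was kept when any 1 array was left out.

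**Figure D1:**
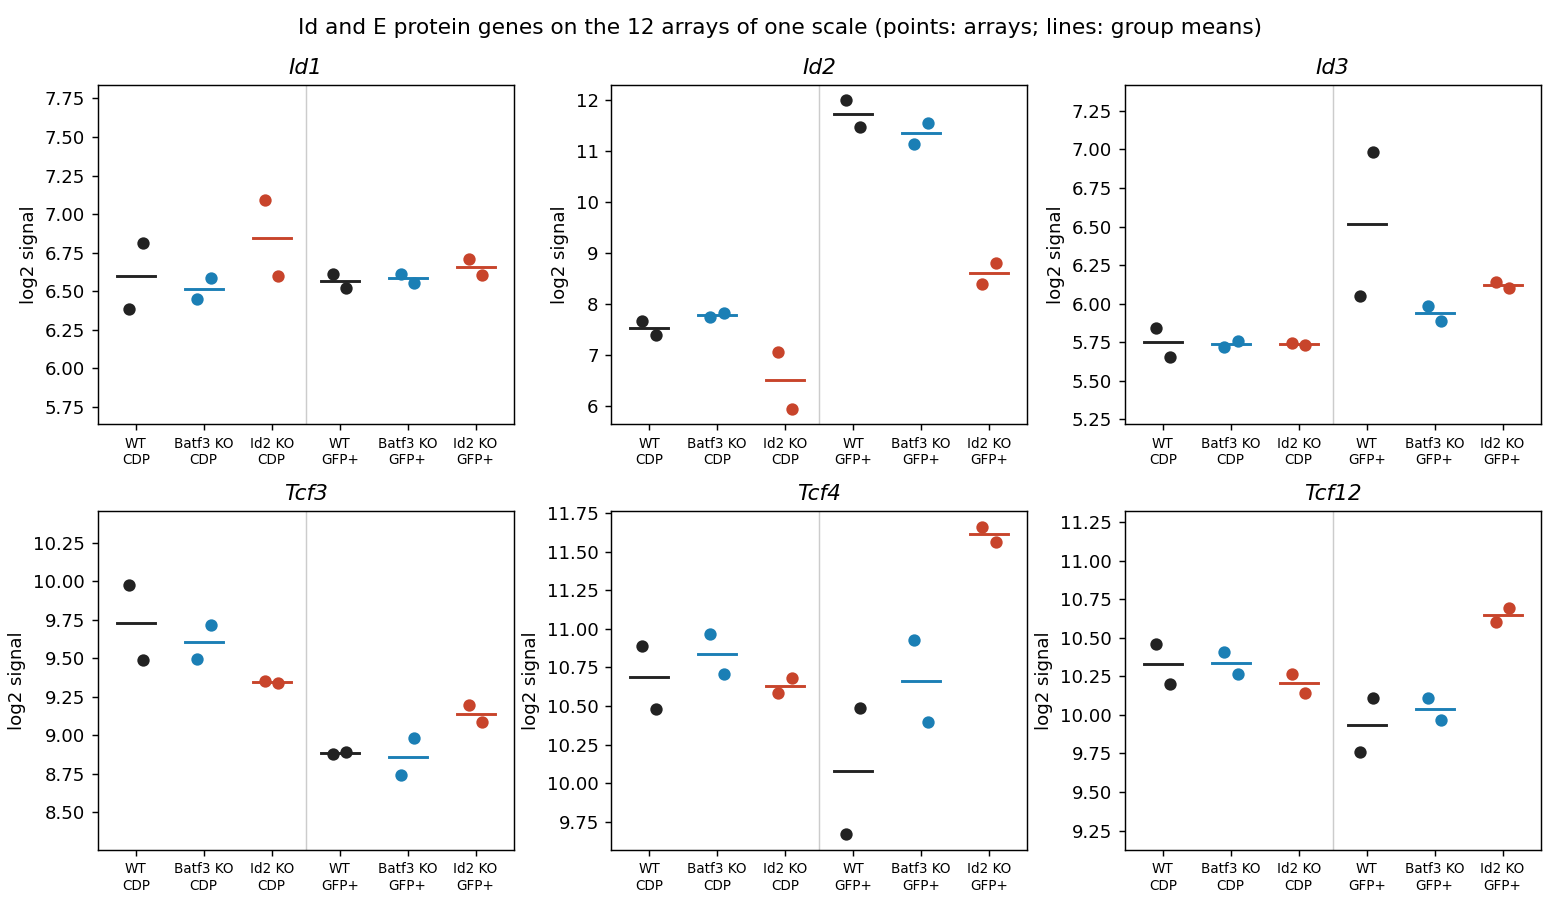
Log2 signal (vertical axis, a separate range in each panel) of the 6 genes in CDPs and Zbtb46-GFP+ (GFP+) cells of 3 genotypes; points are the 12 arrays of one scale and lines are group means of 2 arrays. Id2 stands at 11.14 to 11.999 in WT and Batf3 KO GFP+ cells and at 8.39 to 8.82 in Id2 KO, where Tcf4 and Tcf12 lie above every other array.

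Neither of the other Id genes passed in the step of any single genotype. Id3, an Id protein with roles in lymphocyte development, was at 5.84 and 5.65 in WT CDPs, 5.72 and 5.76 in Batf3 KO CDPs, and 5.74 and 5.73 in Id2 KO CDPs. In Zbtb46-GFP+ cells it was at 6.05 and 6.98 in WT, 5.99 and 5.89 in Batf3 KO, and 6.14 and 6.10 in Id2 KO. All Zbtb46-GFP+ arrays lay above all CDP arrays, and 1 WT array, replicate 3, stood well above the rest. In linear signal that array was at 126.6 and the others at 50.3 to 70.5, below the array medians of 100.8 to 112.1. How much of this dim signal is background was not tested.

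Averaged over the 3 genotypes, Id3 rose by 0.45 (1.36-fold; interval 0.15 to 0.75; limma, adjusted p = 0.0331), a call lost in 9 of the 12 fits that left out 1 array (adjusted p up to 0.0770). The WT step alone was 0.77 (interval 0.25 to 1.28; limma, adjusted p = 0.0604). Without WT Zbtb46-GFP+ replicate 2 that step passed (limma, adjusted p = 5.93e-04), as did Batf3 KO against WT (limma, adjusted p = 0.0122), which otherwise differed by -0.58 (limma, adjusted p = 0.929), and Id2 KO against WT (limma, adjusted p = 0.0210). Without WT replicate 3 the WT step had an adjusted p of 0.273 (limma). With both WT arrays, Id2 KO against WT gave -0.40 (interval -0.91 to 0.12).

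Id1, an Id gene best known as a target of BMP signalling, lay between 6.38 and 7.09 on all 12 arrays. In linear signal this is 83.5 to 136.5, near the array medians of 100.8 to 112.1. Its groups overlapped with their neighbours throughout the order of levels. Its step was -0.03 in WT (interval -0.44 to 0.37), and Id2 KO against WT in Zbtb46-GFP+ cells gave 0.09 (interval -0.31 to 0.49). No Id1 test passed in any of the 11 comparisons.

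Among the E proteins, Tcf4 was highest in Id2 KO Zbtb46-GFP+ cells. It was at 10.89 and 10.48 in WT CDPs, 10.97 and 10.70 in Batf3 KO CDPs, and 10.58 and 10.68 in Id2 KO CDPs. In Zbtb46-GFP+ cells it was at 9.67 and 10.49 in WT, 10.93 and 10.40 in Batf3 KO, and 11.66 and 11.57 in Id2 KO. Both Id2 KO Zbtb46-GFP+ arrays lay above all other arrays, while the CDP groups and Batf3 KO Zbtb46-GFP+ cells overlapped.

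In Zbtb46-GFP+ cells Tcf4 was 2.90-fold higher in Id2 KO than in WT (log2 change 1.54, SE 0.26; interval 0.97 to 2.11; limma, adjusted p = 0.0116), rank 69 of 19938 from the highest. Without WT replicate 2, the array at 9.67, the change was 1.13 (limma, adjusted p = 0.0545). Without Id2 KO replicate 2 or 3 the adjusted p was 0.117 or 0.0877 (limma). Against Batf3 KO the difference was 0.95 (interval 0.38 to 1.52) and did not pass (limma, adjusted p = 0.235). In CDPs Id2 KO and WT differed by -0.05 (interval -0.63 to 0.52).

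Across the stages Tcf4 rose by 0.98 in Id2 KO (1.98-fold; SE 0.26; limma, adjusted p = 0.0462), a call lost in 6 of the 12 fits that left out 1 array. In WT the step was -0.61 (interval -1.18 to -0.04; limma, adjusted p = 0.189) and in Batf3 KO -0.17 (limma, adjusted p = 0.871). The test of the difference between the Id2 KO and WT steps gave 1.59 (interval 0.78 to 2.40; limma, adjusted p = 0.149). Within each group 1 array had the higher and 1 the lower 75th percentile of signal. These sets were made from the values themselves, and the titles name no such batch. With those sets as a block this difference passed for Tcf4 (limma, adjusted p = 0.00729) and for Tcf12 (limma, adjusted p = 0.0204). Under this block 1.87% of genes were called in the same test, against 0.321% without it.

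Tcf12, too, was highest in Id2 KO Zbtb46-GFP+ cells. It was at 10.46 and 10.20 in WT CDPs, 10.41 and 10.27 in Batf3 KO CDPs, and 10.27 and 10.14 in Id2 KO CDPs. In Zbtb46-GFP+ cells it was at 9.76 and 10.11 in WT, 10.11 and 9.97 in Batf3 KO, and 10.60 and 10.69 in Id2 KO. As for Tcf4, both Id2 KO Zbtb46-GFP+ arrays were the highest of the 12.

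Tcf12 was 1.64-fold higher in Id2 KO than in WT Zbtb46-GFP+ cells (log2 change 0.71, SE 0.15; interval 0.37 to 1.05; limma, adjusted p = 0.0440), rank 425 from the highest. This call was lost in 9 of the 12 fits that left out 1 array, with adjusted p-values of 0.0540 to 0.305. Against Batf3 KO the difference was 0.61 (interval 0.27 to 0.94; limma, adjusted p = 0.181). The step was -0.40 in WT, -0.30 in Batf3 KO and 0.44 in Id2 KO; none of them passed (limma, adjusted p = 0.143, 0.364 and 0.137). Over the 12 arrays Tcf4 and Tcf12 had a Pearson r of 0.919, and of 0.842 over the 10 arrays without Id2 KO Zbtb46-GFP+ cells, as a description of arrays that share their groups.

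Tcf3 fell across the stages. It was at 9.97 and 9.49 in WT CDPs, 9.49 and 9.71 in Batf3 KO CDPs, and 9.35 and 9.34 in Id2 KO CDPs. In Zbtb46-GFP+ cells it was at 8.88 and 8.89 in WT, 8.74 and 8.98 in Batf3 KO, and 9.20 and 9.08 in Id2 KO. Every CDP array lay above every Zbtb46-GFP+ array.

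The step of Tcf3 was -0.84 in WT (1.80-fold lower; SE 0.17; limma, adjusted p = 0.00748) and -0.74 in Batf3 KO (1.67-fold lower; limma, adjusted p = 0.0213). In Id2 KO it was -0.21 (interval -0.58 to 0.16; limma, adjusted p = 0.720), and the difference between the Id2 KO and WT steps did not pass (0.64, interval 0.12 to 1.16; limma, adjusted p = 0.722). Without WT CDP replicate 1 the WT step was -0.60 (limma, adjusted p = 0.0714). The Batf3 KO call was lost without any 1 of the 4 Batf3 KO arrays (limma, adjusted p = 0.0507 to 0.154). Averaged over genotypes the fall was -0.60 (limma, adjusted p = 9.45e-04). Id2 KO differed from WT by -0.38 in CDPs and by 0.25 in Zbtb46-GFP+ cells, neither past the threshold (limma, adjusted p = 1.00 and 0.848).

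**Figure D2:**
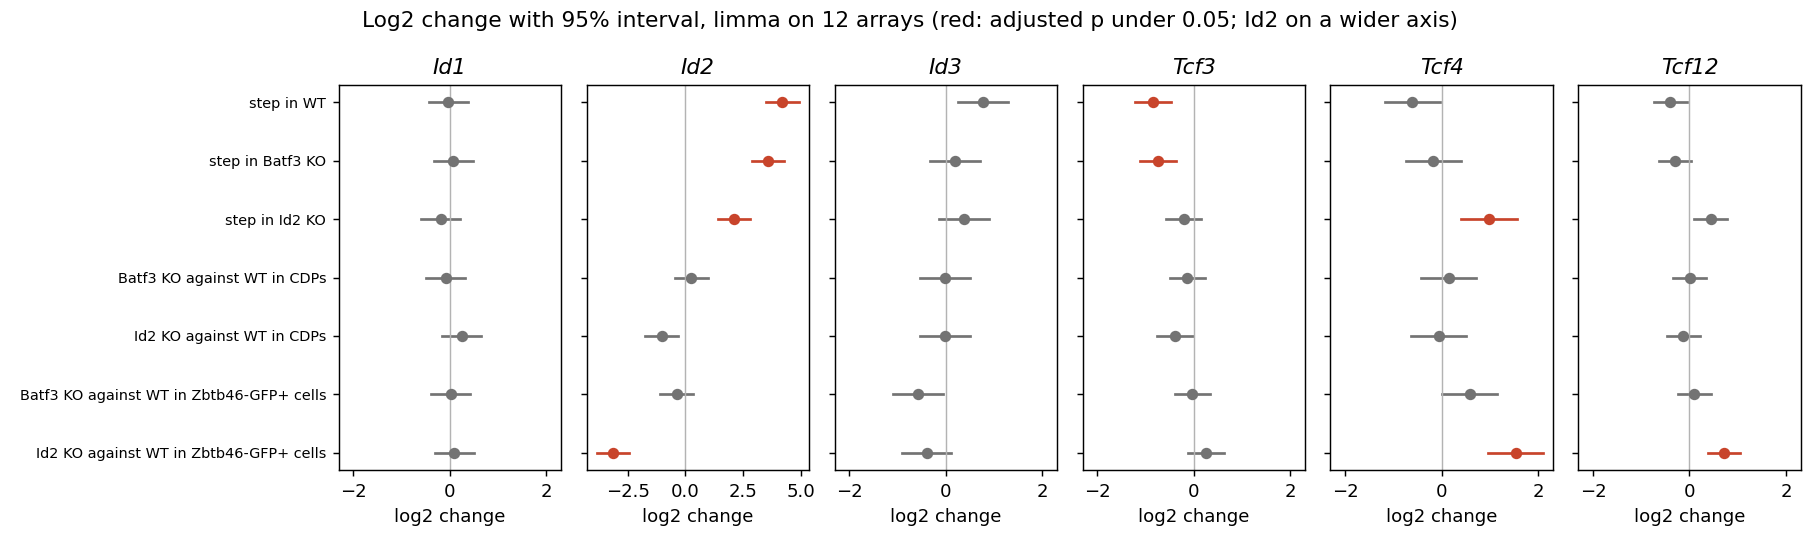
Log2 change (horizontal axis) with its 95% interval for each gene in 7 comparisons, from limma on 12 arrays; red marks an adjusted p under 0.05, and Id2 has a wider axis. Id2 rises in all 3 steps, Tcf3 falls in the steps of WT and Batf3 KO, and Tcf4 and Tcf12 are higher in Id2 KO than in WT Zbtb46-GFP+ cells.

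Arrays of the groups compared did not overlap for 4 of the 6 genes in the WT step, 4 in the Batf3 KO step and 5 in the Id2 KO step, against 44.3%, 44.8% and 41.7% of all genes. The same count was 1 for Batf3 KO and 2 for Id2 KO against WT in CDPs (18% and 13.1% of all genes), 1 and 4 in Zbtb46-GFP+ cells (24.3% and 35.2%), and 5 between the knockouts there (32.3%). Of the tests themselves, 1 gene rose (Id2) and 1 fell (Tcf3) in the WT step, where 4.71% of all genes rose and 6.38% fell. The Batf3 KO step also had 1 and 1, against 3.87% and 3.32%, and the Id2 KO step 2 higher (Id2, Tcf4) and 0 lower, against 3.84% and 2.98%. Over the mean of the steps 2 rose (Id2, Id3) and 1 fell (Tcf3), against 9.23% and 14.1%. In Zbtb46-GFP+ cells Id2 KO against WT had 2 higher (Tcf4, Tcf12) and 1 lower (Id2), against 1.09% and 0.717% of all genes. Between Id2 KO and Batf3 KO 1 was called, Id2, which was lower, where 0.261% of all genes were higher and 0.331% lower. Id2 is the gene targeted in Id2 KO. Its entries in the counts of Id2 KO against WT or Batf3 KO are tied to the design and are not a result about the 6 genes.

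Of the 6 genes, 0 were called by limma in Batf3 KO against WT, in CDPs (0.0502% of all genes called) or in Zbtb46-GFP+ cells (0.336%), nor in Id2 KO against WT in CDPs (0.0251%). At an unadjusted p under 0.05 these comparisons held 0, 2 (Id3, Tcf4) and 2 (Id2, Tcf3) of the 6, against 1.29%, 4.45% and 0.632% of all genes. The Tcf4 difference in Batf3 KO Zbtb46-GFP+ cells was 0.58 (interval 0.01 to 1.15; limma, adjusted p = 1.00), and that of Id2 was -0.38 (interval -1.09 to 0.32). The interactions with stage had 0 calls, with 0.0953% of genes called for Batf3 KO and 0.321% for Id2 KO; at an unadjusted p under 0.05 they held 0 and 4 (Id2, Tcf3, Tcf4, Tcf12) of the 6, against 1.92% and 4.81% of all genes. As the targeted gene, Id2 is tied to the design in these Id2 KO counts, and its place there is not a result about the 6 genes. Both knockouts were set against the same WT arrays.

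The 3 replicate 1 arrays, 1 per genotype, gave a further reading of Zbtb46-GFP+ cells, with no test. Id2 was at 10.68 in WT, 10.46 in Batf3 KO and 8.02 in Id2 KO, so it was 6.34-fold lower in Id2 KO than in WT. Tcf4 was at 6.96, 7.44 and 8.70 in that order, 3.35-fold higher in Id2 KO than in WT. Tcf12 was at 7.14, 7.15 and 7.46.

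Tcf4 and Tcf12 were thus highest in Id2 KO here too. Tcf3 was at 6.25, 6.25 and 6.21 and Id3 at 3.71, 3.71 and 4.24. Id1 had the same value of 4.59 on all 3, and 54.0% of probe sets were identical on these arrays, so an equal value there carries little information. In the pairs of arrays with the higher and the lower 75th percentile, Tcf4 differed between Id2 KO and WT by 1.18 and 1.90, Tcf12 by 0.49 and 0.93, and Id2 by -3.08 and -3.18. Id3 differed by -0.85 and 0.05. These pairs hold arrays already used in the tests, so they are not a further reading. The Id2 KO and WT arrays did not overlap for Tcf4, Tcf12 and Id2, so any pairing of them gives these directions.

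**Figure D3:**
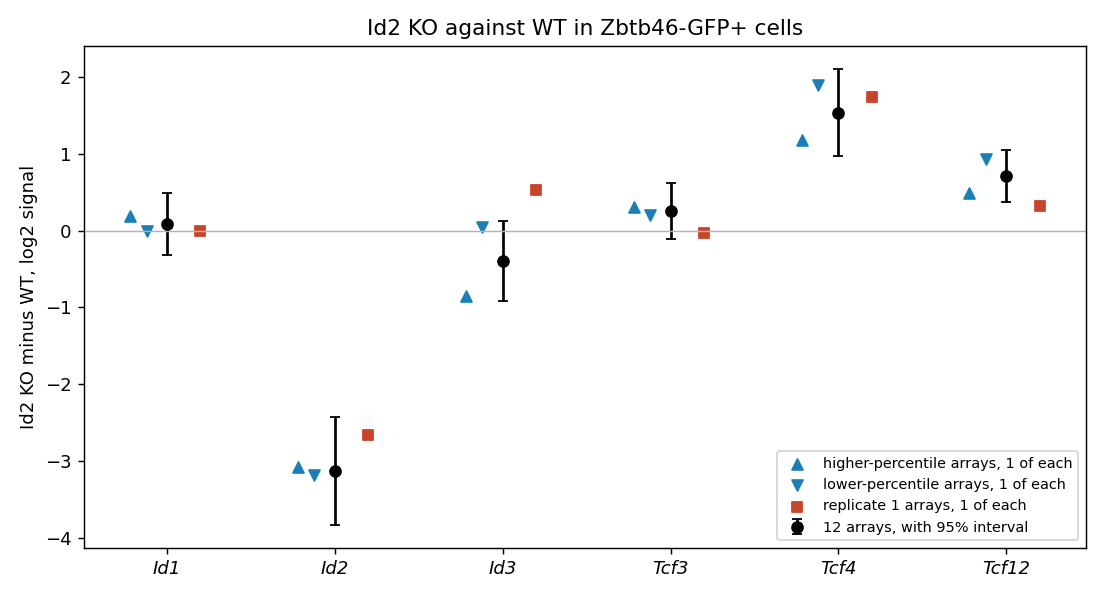
Id2 KO minus WT in Zbtb46-GFP+ cells (vertical axis, log2 signal) for each gene; black points are the 12-array estimates with 95% intervals, blue triangles are single pairs of arrays of the higher or lower 75th percentile, and red squares are the replicate 1 arrays. Tcf4 is higher in all 3 pairs, by 1.18, 1.90 and 1.74, and Id2 lower in all 3. The blue pairs hold the same arrays as the black points, so only the red squares are a further reading.

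Each E protein gene was also read minus Id2 within each array, of which only the change between groups can be read. Id2 is the gene targeted in Id2 KO, so this quantity is partly set by the design there and does not measure a balance. In Id2 KO against WT Zbtb46-GFP+ cells Id2 changed by -3.13, and Tcf3, Tcf4 and Tcf12 by 0.25, 1.54 and 0.71. From WT CDPs, Tcf4 minus Id2 changed by -4.80 ± 0.95 (SD, n = 2) on the log2 scale in WT Zbtb46-GFP+ cells and by -3.84 ± 0.67 in Batf3 KO. In Id2 KO Zbtb46-GFP+ cells it stood at -0.14 ± 0.37, with 1 array on each side of the WT CDP mean. Tcf12 minus Id2 changed by -4.59 in WT, -4.10 in Batf3 KO and -0.75 in Id2 KO Zbtb46-GFP+ cells. Tcf3 minus Id2 changed by -5.04, -4.68 and -1.66 in that order. In Id2 KO CDPs the 3 quantities were 0.97, 0.90 and 0.64 above WT CDPs, with SDs of 0.70 to 0.86, where Id2 itself had an SD of 0.79.

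**Figure D4:**
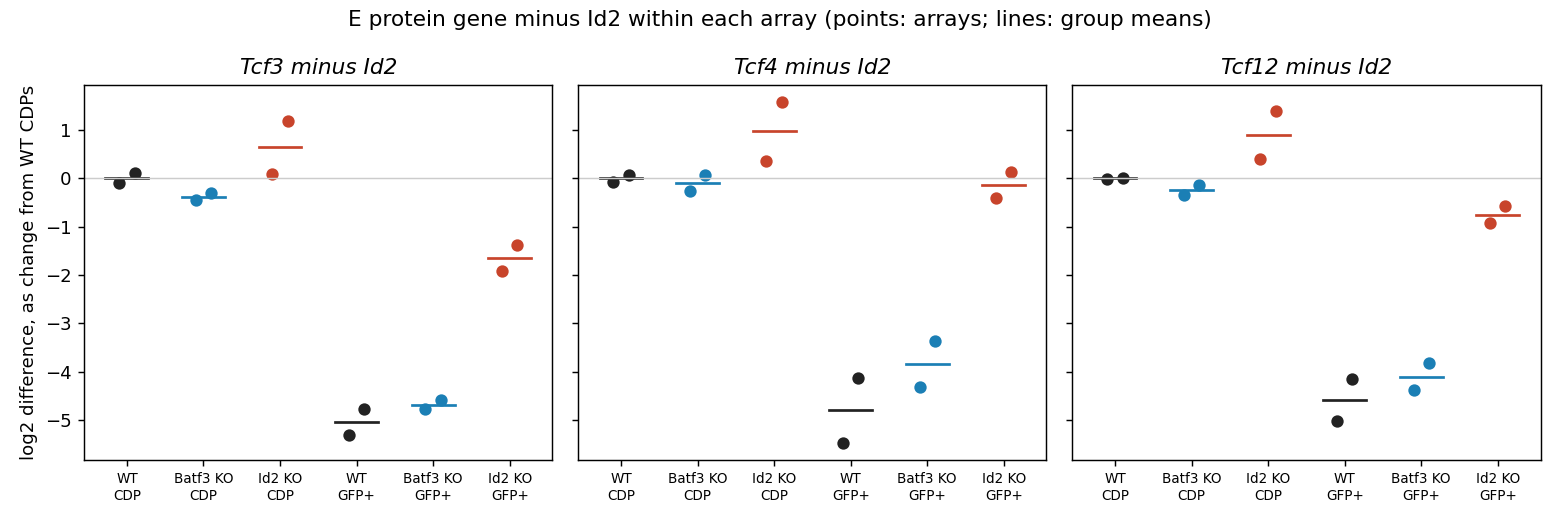
E protein gene minus Id2 within each array, as the change from the mean of WT CDPs (vertical axis, log2); points are arrays and lines are means of 2. WT and Batf3 KO Zbtb46-GFP+ (GFP+) cells lie between -5.47 and -3.36, and Id2 KO GFP+ cells between -1.92 and 0.13. Id2, the subtracted gene, is the one targeted in Id2 KO, so the values there are partly set by the design.

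The genes whose log2 signal followed each member most closely over the 12 arrays were Fgl2 (r = 0.975), Mllt3 (0.974) and Btg2 (0.968) for Id2. Fgl2, a fibrinogen-like protein, was at 7.55 in WT CDPs, 11.14 in WT Zbtb46-GFP+ cells and 8.98 in Id2 KO Zbtb46-GFP+ cells. The most opposite to Id2 were Cnot9 (r = -0.966), Zwilch (-0.962) and Rtkn2 (-0.959). For Tcf4 they were Carmil1 (0.973), Fam160b1 (0.965) and Csf2rb2 (0.962), and for Tcf12 Ptprs (0.941), Mctp2 (0.941) and Rcsd1 (0.940). Mctp2 was at 6.26 in WT and 9.27 in Id2 KO Zbtb46-GFP+ cells. For Tcf3 they were Hnrnpl (0.935), Txnrd1 (0.931) and Csnk1a1 (0.930), for Id3 Fndc7 (0.942), Lmna (0.938) and Dennd1b (0.937), and for Id1 Gm11565 (0.917), Ms4a2 (0.874) and Aard (0.863). These are the extremes of 19938 genes over arrays that share 6 groups, and no test was made.

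Genes around the pathway were read from 6 lists. Over all genes, 4.71% rose and 6.38% fell in the WT step, and 3.84% rose and 2.98% fell in the Id2 KO step. In Zbtb46-GFP+ cells 1.09% were higher and 0.717% lower in Id2 KO than in WT, and 0.336% were called in Batf3 KO. Among genes known to depend on Tcf4 in plasmacytoid DCs, 12 of 14 were measured. Of these, 5 were higher and 0 lower in Id2 KO than in WT Zbtb46-GFP+ cells, with a median log2 change of 1.13 against -0.02 over all genes. Siglech, a plasmacytoid DC surface lectin, differed by 3.06 (8.37-fold; limma, adjusted p = 0.00641), Tex2 by 1.83, Bst2, the plasmacytoid DC marker tetherin, by 1.50 and Pacsin1 by 1.28. The fifth was Cox6a2 (1.20). The Tex2 call was kept whichever array was left out, that of Pacsin1 was lost without Id2 KO replicate 2, those of Siglech and Bst2 without Id2 KO replicate 2 or 3, and that of Bst2 also without WT replicate 2. In the Id2 KO step 8 of the 12 rose, with Spib, an Ets factor of plasmacytoid DCs, at 3.08, Ccr9 at 2.98, Irf7 at 2.37 and Siglech at 2.02. The Siglech call in that step was lost whichever of the 4 Id2 KO arrays was left out, and that of Spib without Zbtb46-GFP+ replicate 2. In the WT step 3 rose (Irf7 2.79, Ccr9 2.25, Tlr9 1.30) and 1 fell (Tex2 -1.50). In Batf3 KO against WT Zbtb46-GFP+ cells 0 of the 12 passed by limma, with a median of 0.46. At an unadjusted p under 0.05 there were 5, where 4.45% of all genes were. In CDPs that comparison also passed for 0, with a median of 0.40 and 3 at an unadjusted p under 0.05 (1.29% of all genes). Between Id2 KO and Batf3 KO Zbtb46-GFP+ cells 0 of the 12 passed by limma, with a median of 0.72. There 8 were at an unadjusted p under 0.05, where 5.43% of all genes were. The interaction of Id2 KO with stage passed for 0 of the 12, with a median of 1.10 and 9 at an unadjusted p under 0.05, where 4.81% of all genes were. With the array sets as a block it passed for 7, and Id2 KO against WT for 8, where 1.87% and 6.08% of all genes were called.

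Of the E protein targets known from lymphoid progenitors, 17 of 18 were measured, and 2 were higher and 0 lower in Id2 KO than in WT Zbtb46-GFP+ cells (median 0.27). Ly6d, a surface marker of early B lineage and plasmacytoid DC progenitors, was higher by 4.03 (16.3-fold; limma, adjusted p = 3.85e-04), and Blnk, an adaptor of B cell receptor signalling, by 1.98. In the WT step 0 rose and 3 fell, namely Vpreb1 (-2.15), Dntt (-1.93) and Notch1 (-1.41). In the Id2 KO step Ly6d (2.72), Blnk (1.78) and Foxo1 (0.93) rose and Dntt (-1.85) fell. Ly6d was also called in the interaction of Id2 KO with stage (3.74; limma, adjusted p = 0.0197). Its calls in Id2 KO against WT and in the Id2 KO step were kept whichever array was left out, and that of Blnk against WT was lost without WT replicate 2 or Id2 KO replicate 2 or 3.

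Of the 14 transcription factors tied to the Id2 and Tcf4 fate decision, 4 were higher and 2 lower in Id2 KO than in WT Zbtb46-GFP+ cells (median 0.31). Nfil3, a factor upstream of Id2 in several lineages, differed by 2.77 (6.81-fold; limma, adjusted p = 3.85e-04), Zeb2, a repressor of Id2 known in DCs, by 1.32 and Runx1 by 1.22. Ikzf1 was the fourth (0.60). The lower ones were Batf3 (-1.63) and Zbtb46 (-1.06), the factor whose reporter was the sorting gate. In Batf3 KO against WT 2 of the 14 were lower, Batf3 itself and Zbtb46 (-1.08). In the WT step Batf3 (2.79) and Irf4 (2.48) rose and Nfil3 (-2.16) and Zeb2 (-1.64) fell, among 3 in each direction. Whichever array was left out, the calls of Nfil3 and Batf3 in Id2 KO were kept, while that of Zeb2 was lost in 9 of the 12 fits and that of Runx1 without WT replicate 2 or Id2 KO replicate 2 or 3. That of Zbtb46 in Batf3 KO was lost without either Batf3 KO array.

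The other 3 lists held no call in the knockouts. Of 19 E protein partners and cofactors, 26 other bHLH factors and 20 members of BMP and TGF-beta signalling, 0 were called by limma in either knockout against WT in Zbtb46-GFP+ cells, with 1, 3 and 2 of them at an unadjusted p under 0.05 in Id2 KO (9.29% of all genes) and 3, 0 and 1 in Batf3 KO (4.45%). Their medians in Id2 KO were 0.01, -0.05 and 0.02. Across the WT step 5 of the 19 partners fell and 0 rose, among them Lyl1 (-0.93) and Tal1 (-0.68), bHLH factors that pair with E proteins, and Ssbp2 (-0.78) and Kat2a (-0.71). Of the 26 other bHLH factors 3 rose and 3 fell, with Bhlhe40 (1.65), Srebf2 (1.35), Ahr (1.30) and Tfec (-1.98) the largest. Over all genes 4.71% rose and 6.38% fell in this step, and no result about a list is read from such counts. Of the BMP and TGF-beta genes, Skil (1.20) and Tgfbr2 (0.62) rose and Smad3 (-0.93) and Smad5 (-0.93) fell. In the Id2 KO step 1 partner rose (Ssbp3 0.82) and 2 fell (Kat2a -0.96, Lyl1 -0.60), while Bhlhe40 (2.50), Srebf2 (1.11), Ahr (1.00), Tfec (-2.25) and Myc (-1.12) passed among the bHLH factors and Smad3 (-1.02) among the signalling genes. In the WT step, leaving out WT CDP replicate 1 lost Tal1, Ssbp2, Kat2a, Skil, Tgfbr2, Smad3 and Smad5, and leaving out WT CDP replicate 2 lost Bhlhe40, Tal1, Skil and Tgfbr2. Without WT Zbtb46-GFP+ replicate 2 that step lost Ssbp2, Kat2a, Smad3 and Smad5, and without replicate 3 it lost Tal1, Skil and Tgfbr2. Leaving out a knockout array could also end the WT step calls of Tgfbr2 and Skil, which were lost in 9 and 5 of the 12 fits. The WT step calls of Lyl1, Srebf2, Ahr and Tfec were kept whichever array was left out. In the Id2 KO step the Lyl1 call was lost in 8 of the 12 fits and that of Smad3 in 4, those of Ssbp3 and Myc without Id2 KO Zbtb46-GFP+ replicate 3 and that of Srebf2 without replicate 2.

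**Figure D5:**
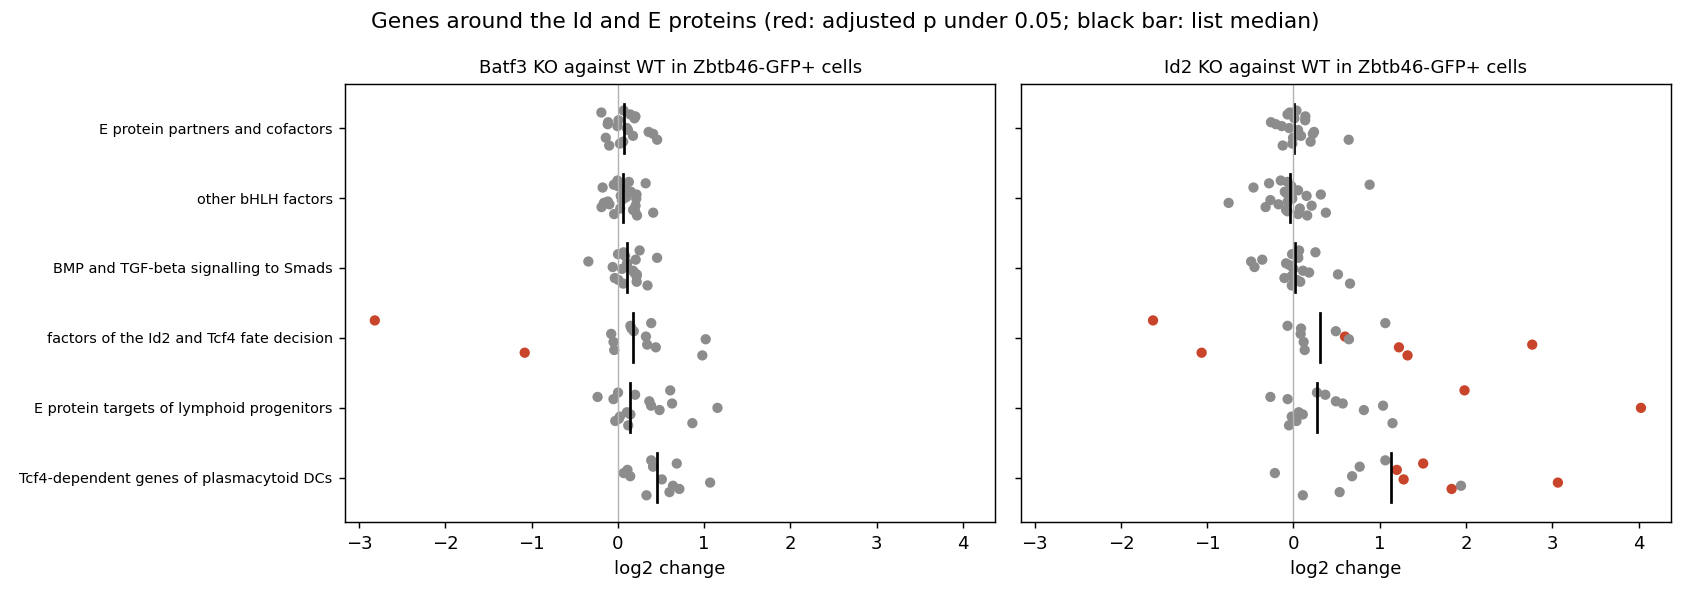
Log2 change (horizontal axis) of each measured gene of the 6 lists in Batf3 KO (left) and Id2 KO (right) against WT Zbtb46-GFP+ cells; red points passed an adjusted p of 0.05, and black bars are list medians. Only the last 3 lists hold red points, with 5 of 12 Tcf4-dependent genes higher in Id2 KO and 0 of 12 in Batf3 KO. The direct test of Id2 KO against Batf3 KO, not shown, passed for 0 of these 12.

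Markers of other cell types also moved in Id2 KO against WT Zbtb46-GFP+ cells, where 1.09% of all genes were called higher and 0.717% lower. In Batf3 KO against WT there, 0.336% were called in either direction. In these sorted populations, a change in the share of a cell type and a change in RNA per cell cannot be told apart. The summed linear signal of 5 measured plasmacytoid DC markers of 7 was 2945 to 3766 in WT, 4359 to 6629 in Batf3 KO and 11028 to 11829 in Id2 KO Zbtb46-GFP+ cells, with 4 of the 5 called higher in Id2 KO; some of these genes are also in the Tcf4-dependent list. That of 8 neutrophil and granule genes was 15593 to 15797 in WT, 21612 to 27856 in Batf3 KO and 37695 to 38955 in Id2 KO. Of these 8, 1 was called higher in Batf3 KO and 3 in Id2 KO. For 5 basophil and mast cell genes the sum was 319 to 902 in WT, 670 to 879 in Batf3 KO and 1990 to 2616 in Id2 KO, with 1 of 5 called higher in Id2 KO. In CDPs this sum was also higher in Id2 KO, at 1241 to 3509 against 618 to 1013 in WT, with 0 of 5 called.

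That of 7 cDC1 markers was 19173 to 21574 in WT, 7995 to 8207 in Batf3 KO and 5919 to 6193 in Id2 KO, with 6 of 7 lower in Id2 KO and 4 of 7 in Batf3 KO. Of 5 markers of classical DC progenitors, 4 were higher in the WT step, where 4.71% of all genes rose, and 4 lower in Id2 KO than in WT. The 4 lower ones were Id2, the targeted gene, Zbtb46, whose reporter was the sorting gate, Batf3 and Kit. Flt3 was not lower, at 11.45 in WT and 11.61 in Id2 KO Zbtb46-GFP+ cells. That of 8 T, NK and innate lymphoid genes stayed at 369 to 486 in all groups. The other 5 marker lists, for cDC2, CDPs, B lineage, erythroid and megakaryocyte cells, and monocytes and macrophages, had 0, 1, 0, 0 and 1 gene called higher and 0, 1, 0, 0 and 1 called lower in Id2 KO than in WT. The summed cDC2 signal was 3479 to 7715 in WT, 10201 to 12675 in Batf3 KO and 8513 to 10073 in Id2 KO Zbtb46-GFP+ cells. The median log2 change of the 7 cDC2 markers against WT was 1.02 in Batf3 KO and 0.88 in Id2 KO, with 0 called in either. The part of all these cell types in the Tcf4, Tcf12 and Id2 values was not tested.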

How the data were processed

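Affymetrix arrays measured total RNA of 15 sorted samples. The deposited values are intensities, the linear signal of each probe set, which the authors made with Affymetrix Expression Console and RMA, per the submitters' processing notes, with no settings given. Deposited values were turned to log2, so differences in RNA amount that RMA evens out cannot be seen. Of 28853 probe sets, 21789 carried 1 gene symbol, 1621 several and 5443 none in the platform annotation; 21698 matched RefSeq. The brightest per gene gave 19938 genes. Groups come from the titles. Depth does not apply, and the number of arrays limits the precision.

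limma 3.58.1 (R 4.3.3, statmod 1.5.0) fitted 6 group means on 12 arrays (6 residual degrees of freedom), for 11 two-sided comparisons, each adjusted over all genes by Benjamini-Hochberg, with a threshold of 0.05. A run on simulated data with 200 changed genes was checked first. Alternatives were 12 fits that each left out 1 array and 11 other settings. Promoter windows came from RefSeq (GRCm38.p6). The members, the 6 gene lists, the 11 marker lists and the comparisons were chosen with earlier results of these data known. Named were the 6 members and the 3 genes most alike to each (for Id2 also most opposite). Up to 4 called genes per list were named in the WT step, the Id2 KO step and either knockout in Zbtb46-GFP+ cells. Cox6a2, Ikzf1, Zbtb46 in Id2 KO, Ahr in Id2 KO, the CDP markers, Xist and the interaction of Ly6d were named after their values were seen. List members without a value were left out of the counts, Bmal1 was read as Arntl, and Bcl11a is in 2 lists.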

Additional observations from a re-analysis of the deposited data

Results flagged for a closer look

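Tcf3 moved in opposite directions at the stages, with no overlap of the arrays compared: Id2 KO differed from WT by 0.25 in Zbtb46-GFP+ cells and by -0.38 in CDPs (interaction by limma, adjusted p = 0.722). Tcf12 had opposite steps in Id2 KO (0.44) and WT (-0.40), again without overlap (interaction by limma, adjusted p = 0.237). The Tcf12 step of 0.44 in Id2 KO was also opposite to that in Batf3 KO (-0.30), a difference that was not tested.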

How the results depend on the processing

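Over 120 gene results and 2760 alternative values, 2471 kept their side of the threshold, 250 lost the call, 25 gained it and 14 reversed. Direction was compared only for results that passed in the fit of 12 arrays, so reversals of the other results were not counted. Without the plain and the replicate-blocked fits of 15 arrays these were 2364, 134, 22 and 0 of 2520. Of the 13 calls on the 6 genes, 7 were kept whichever of the 12 arrays was left out. The cause of the changes was not tested, except that the plain 15-array fit mixes arrays of 2 scales.

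Replicate numbers were not taken as pairing the arrays, since not every correlation of deviations between arrays of the same number was positive. They were 0.53 to 0.683 among CDPs, -0.554 to 0.477 among Zbtb46-GFP+ cells and -0.63 to 0.537 across stages. The share of all genes called is given below only for the array sets as a block and for quantile normalization. Without that share, as in the fits that left out 1 array, a count cannot be set against all genes. It is then no result about the 6 genes. With the replicate block on 12 arrays, 1 of the 6 genes was called in the Batf3 KO step and 1 in the Id2 KO step, in place of 2 each. With the replicate block on 15 arrays the counts were 1 (WT step), 0 (steps of both knockouts, and Id2 KO against either other genotype among Zbtb46-GFP+ cells) and 5 (mean step). With all 15 arrays and no term for the 3 they were 0 in the 3 steps and in both Id2 KO comparisons in Zbtb46-GFP+ cells, and 1 in the mean step. With a term for the 3 arrays, Id2 KO against Batf3 KO had 2. With the array sets as a block the WT step had 5 (24.2% of all genes called), the Id2 KO step 3 (16.2%), Id2 KO against Batf3 KO 3 (2.54%) and the interaction of Id2 KO with stage 3 (1.87%). Quantile normalization gave 3 (11.9%), 2 (1.26%) and 1 (0.878%) for the last 3 of these. The Id3 WT step passed by limma with the array sets as a block (adjusted p = 0.0132), 75th percentile centring (0.0268), the dimmest genes left out (0.0473) and trend and robust eBayes (0.0494). Centring on the 75th percentile gave 1 in the Batf3 KO step; that centring put the median of all genes in the WT step at 0.14 in place of 0.03.

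Leaving out 1 array gave 1 to 3 calls in the WT step, 1 to 2 in the step of each knockout, 2 to 3 in the mean step, 0 to 1 in Batf3 KO against WT in Zbtb46-GFP+ cells (Id3, without WT replicate 2), 1 to 3 in Id2 KO against WT there and 0 to 1 in the interaction of Id2 KO with stage.

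Among results that had passed, reversed values came only from the 15-array fits, plain or with the replicate block. The plain fit gave -0.32 for the Id3 mean step, -0.27 for Ssbp3 and -0.21 for Srebf2 in the Id2 KO step, and -0.39 for Tgfbr2 in the WT step. With the replicate block these were -0.77, -0.80, -0.86 and -0.92. The block also gave -0.52 for Tcf4, -0.25 for Bcl11a and -0.047 for Irf7 in the Id2 KO step, and -0.56 for Srebf2, -0.24 for Skil and -0.66 for Tlr9 in the WT step.

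With 2 arrays per group the precision is low: the 95% interval of a Tcf4 difference reaches 0.57 to either side and that of Id2 0.70.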
